A study of Caenorhabditis elegans with 12 samples.

Results

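The microRNA pool of old worms, at day 21 of adulthood, was compared with that of young worms, at day 1 of adulthood. The labels give 3 replicates at each age, so 6 of the 12 small RNA libraries of the series were compared, and the other 6 libraries, from day 7 and day 14, entered only to estimate the spread of the fit and to place the old pool in time. Every library came from whole worms of the N2 strain with wild type genotype, and no treatment, mutation or transgene was used in either age group. Each library came from a pool of many worms handpicked at their age. The worms were moved to fresh plates in the first part of adulthood so that progeny did not mix in, and those that hatched embryos internally were removed. Old worms are therefore the survivors of the cohort at that age.

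MicroRNAs are short RNAs cut from hairpin precursors. One arm of the hairpin, the guide, is usually loaded into an Argonaute protein and directs it to messenger RNAs through its seed, bases 2 to 8, while the other arm is mostly degraded. MicroRNAs with the same seed form families that can act on the same targets. In worms, let-7 and lin-4 time larval development, the miR-35 and miR-51 families are needed in embryos, miR-1 acts in muscle, and miR-71 is known for its role in lifespan.

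Each value below is a microRNA's percent of all microRNA counts in a library (its share) unless another scale is named. Shares are relative, so that a gain of some microRNAs lowers the shares of all others, and no measure of microRNA per worm was available. The libraries held 6041434 to 11346614 counts at day 21 and 5782871 to 16863518 at day 1, over 368 mature microRNAs, with 1 line of the table for each mature name. A single count was at most 1.73e-05% of a library, so that counting error was small beside the spread between replicates. In whole worms, fewer cells of a type and less RNA per cell cannot be told apart.

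A few short sequences from the study's oligos stand for molecules of this kind, and none was read from the libraries. The first is the sense strand of the study's miR-83-3p mimic, the microRNA the study followed, and the next is the part of its miR-56 primer given in small letters, which starts at the first base of miR-56-3p, the leading member of the miR-51 family at day 1. Capitals mark the seed in both. The third is its miR-82 primer, for an abundant member of the miR-58 family, with no seed marked. Its first base need not be that of the microRNA. All are written with T in place of U. The genes lie on chromosomes IV, X and X.
miR-83-3p mimic: tAGCACCAtataaattcagtaa
miR-56 primer part: tACCCGTAatgtttcc
miR-82 primer: ctgtgagatcatcgtgaaa

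The labelled tissue was checked with microRNAs of known tissues. Those of muscle (mir-1) held 0.752% ± 0.161 at day 21 and 1.43% ± 0.282 at day 1, those of glia (mir-228) 3.04% ± 0.893 and 2.23% ± 0.208, and those of neurons (lsy-6, mir-124 and mir-234) 0.0349% ± 0.00118 and 0.0365% ± 0.00607 (SD, n = 3 each). The intestinal mir-60 held 0.0139% ± 0.00703 at day 21 and 0.0457% ± 0.0273 at day 1. All of these tissues were thus represented at both ages, as a whole worm requires. The ages overlapped in the summed shares of glia, neurons and intestine. In the fit described below, which also uses the scaling between libraries, the intestinal mir-60 nevertheless fell by 1.496 on the log2 scale (SE 0.43, edgeR adjusted p = 0.00611). The neuronal sum was mostly mir-234, with 0.0330% at day 21 and 0.0351% at day 1. The less abundant mir-124 held 0.00151% and 0.000833%, without overlap. In the same fit mir-124 rose by 1.038 (SE 0.346, edgeR adjusted p = 0.0134). Neither mir-234 nor lsy-6 passed (edgeR adjusted p = 0.679 and 0.556). The germline and embryo microRNAs mir-35 to mir-42 moved most, with 20.9% ± 0.966 at day 21 and 2.34% ± 0.306 at day 1. Whether germline or embryo material differed between the ages in step with this family was not tested.

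The libraries of an age were not equally alike. Over the whole pool, unlikeness was measured as the Bray-Curtis dissimilarity of shares, which is the percentage of the pool that would have to be moved to turn one library into another. The 3 pairs of day 21 libraries differed by 12.1% to 14.3%. At day 1, replicates 1 and 3 differed by 4.93%, while replicate 2 differed from them by 20.4% and 22.4%. Day 1 replicate 2 thus stands apart, and several results that lean on it are given without it as well. Each of the 3 day 21 libraries was nearer to a day 14 library than to any of its own age, at 7.67%, 2.74% and 9.89%. The closest was day 21 replicate 2 to day 14 replicate 1, although the counts of this pair were not equal within sampling noise (chi-square 71.7 per degree of freedom).

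Between the ages the pool was remade by more than replicates differed. The 9 pairs of a day 21 and a day 1 library differed by 29.8% to 45.03% with a mean of 38.2%, so that the most alike pair of an old and a young library was less alike than any 2 replicates of these ages. The mean within ages was 14.5% and the gap 23.7 percentage points. An exact permutation test over the 6 libraries gave p = 0.1, the smallest value that 3 against 3 libraries allow, and 0.114 after adjustment over the 8 measures of the pool tested in this way. Without day 1 replicate 2 the gap was 25.4 points. The mean profiles of the ages differed by 36.8 percentage points, of which 32.3 points lay between gene families and the rest within them.

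Set beside the other ages, the day 21 pool was close to that of day 14. Day 21 libraries differed from day 7 libraries by 29.6% on average and from day 14 libraries by 10.6%, less than day 21 libraries differed among themselves (mean 13.0%). Day 1 libraries differed from day 7 libraries by 19.2% and from day 14 libraries by 36.2%. By mean share, the 20 most abundant microRNAs of day 21 and day 14 shared 19 names, and those of day 21 and day 7 shared 17. The larger part of the difference between old and young pools was therefore already present in the day 14 libraries, with no test of the order of ages made.

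The old pool was also spread more evenly over its microRNAs. The effective number of microRNAs, the number of equally abundant microRNAs that would give the same Shannon entropy, was 32.7, 30.9 and 33.6 at day 21, against 29.2, 23.7 and 28.6 at day 1. The ages did not overlap, with means of 32.4 ± 1.37 and 27.2 ± 3.05 (SD, n = 3 each; exact permutation test, two-sided, p = 0.1, adjusted 0.114). The gap was 5.20, or 3.44 without day 1 replicate 2, the most uneven library. At day 21, 8 or 9 microRNAs made up 50% of a library, against 5 to 7 at day 1.

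**Figure D1:**
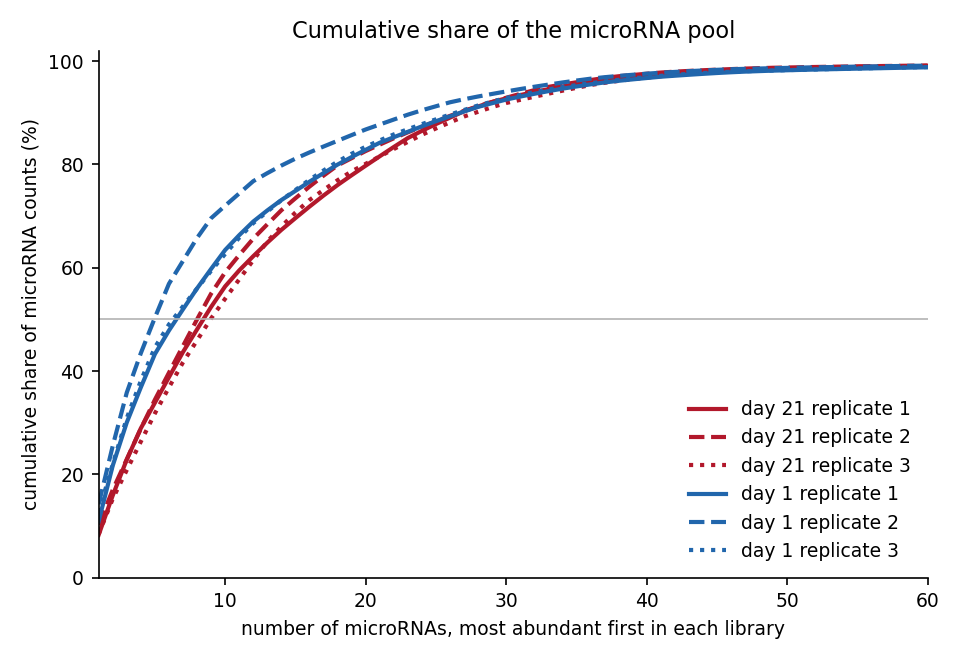
Cumulative share of the microRNA counts (y axis, percent) held by the most abundant microRNAs of each library (x axis, number of microRNAs), with a line per library, day 21 in red and day 1 in blue, and a grey line at 50%. Day 21 lines run below day 1 lines for the first 10 microRNAs, at 54.0% to 59.1% against 62.7% to 72.0%, and the lines meet near 90%.

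The top of the list carried this difference. The leading microRNA of a library held 9.01% ± 1.09 at day 21 and 12.6% ± 1.65 at day 1, and the 10 leading ones 56.5% ± 2.56 and 66.0% ± 5.18. The difference for the 10 leading ones was -9.53 points, or -6.55 points without day 1 replicate 2 (exact permutation p = 0.1 with 3 libraries each). Further down the lists were alike, since 27 or 28 microRNAs at day 21 and 24 to 27 at day 1 made up 90% of the counts, and 47 or 48 against 46 or 47 microRNAs held at least 0.1%. The number of microRNAs expected at the smallest library total was 290 ± 5.26 at day 21 and 282 ± 5.39 at day 1, with overlap (exact permutation p = 0.2), so the data do not show that more kinds of microRNA were present in old worms.

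Each microRNA was tested with edgeR's quasi-likelihood test on the counts, scaled by TMM, with Benjamini-Hochberg adjustment over the 245 microRNAs tested and a threshold of 0.05. Among the 57 abundant microRNAs, those with a mean share of at least 0.1% at either age, 25 were higher at day 21, 16 lower and 16 did not pass. Over all microRNAs tested, 71% passed, 35.1% as higher and 35.9% as lower. The 41 abundant ones that passed are thus close to the background. Without day 1 replicate 2, 45 passed, 24 as higher and 21 as lower. The libraries of the ages did not overlap for 41 of the 57, where 73.5% of all tested did not overlap. These 57 microRNAs held 98.8% of the day 21 counts and 98.5% of the day 1 counts. The median log2 fold change was 0.20 over the 57 and -0.06 over all 245.

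**Figure D2:**
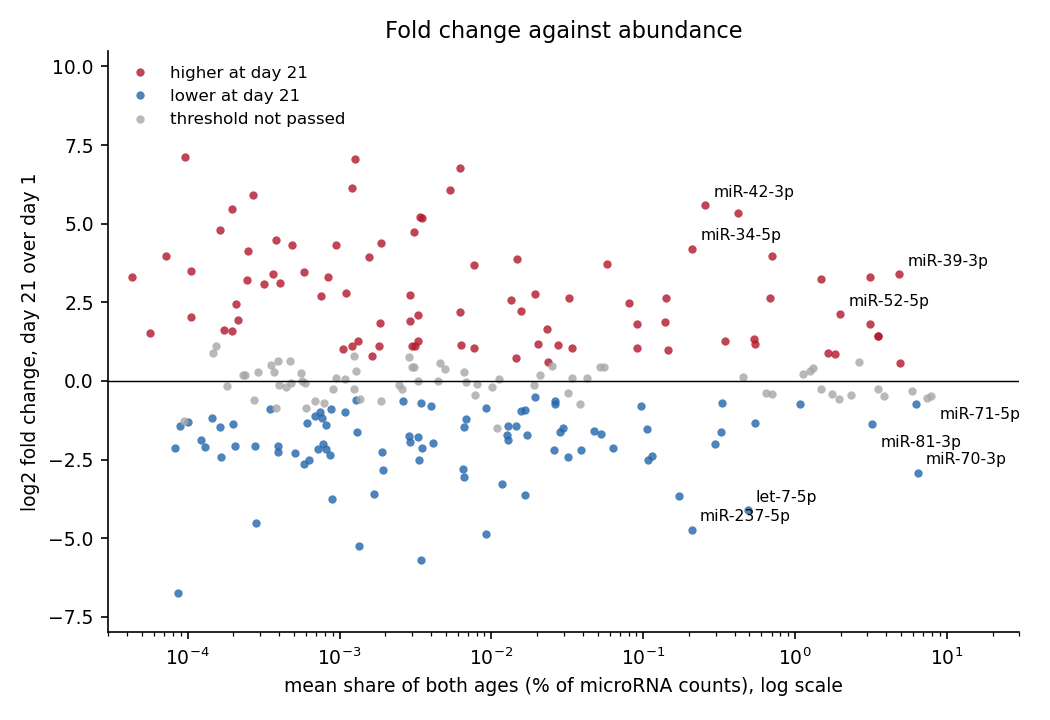
Log2 fold change of day 21 over day 1 (y axis, edgeR with TMM scaling) against the mean share of both ages (x axis, percent of microRNA counts, log scale) for the 245 microRNAs tested, a point each. Red points passed the threshold as higher at day 21 (86), blue points as lower (88), and grey points did not pass (71). Changed microRNAs lie at all abundances, from miR-70-3p and miR-39-3p at the right edge to the left end of the axis.

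The choice of scaling matters for the direction of small changes. With scaling by total counts the median of all fold changes was -0.26 in place of -0.06, and the abundant microRNAs split into 23 higher and 21 lower. Relative to the fit, old libraries thus look lower by about this shift where shares are compared directly, and a modest loss of share below need not be a fall in the fit. TMM takes most microRNAs as unchanged, while 71% of those tested passed, and which scaling lies nearer to the true amounts was not tested.

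Ranking was remade near the top while the list kept most of its names. The 20 most abundant microRNAs at day 21 and at day 1 shared 16 names. miR-39-3p, miR-35-3p, miR-52-5p and miR-40-3p were among the 20 only at day 21, with ranks of 1, 3, 11 and 15 at day 21 and 24, 30, 27 and 38 at day 1. miR-70-3p, miR-64-5p, miR-77-3p and miR-1-3p were among them only at day 1, with ranks of 21, 23, 26 and 30 at day 21 and 1, 13, 16 and 18 at day 1. Of the 24 names in either list, 10 were higher at day 21, 4 were lower and 10 did not pass, a share called below the 71% of all microRNAs tested. The 10 include miR-44-3p and miR-45-3p, whose counts are the same.

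**Figure D3:**
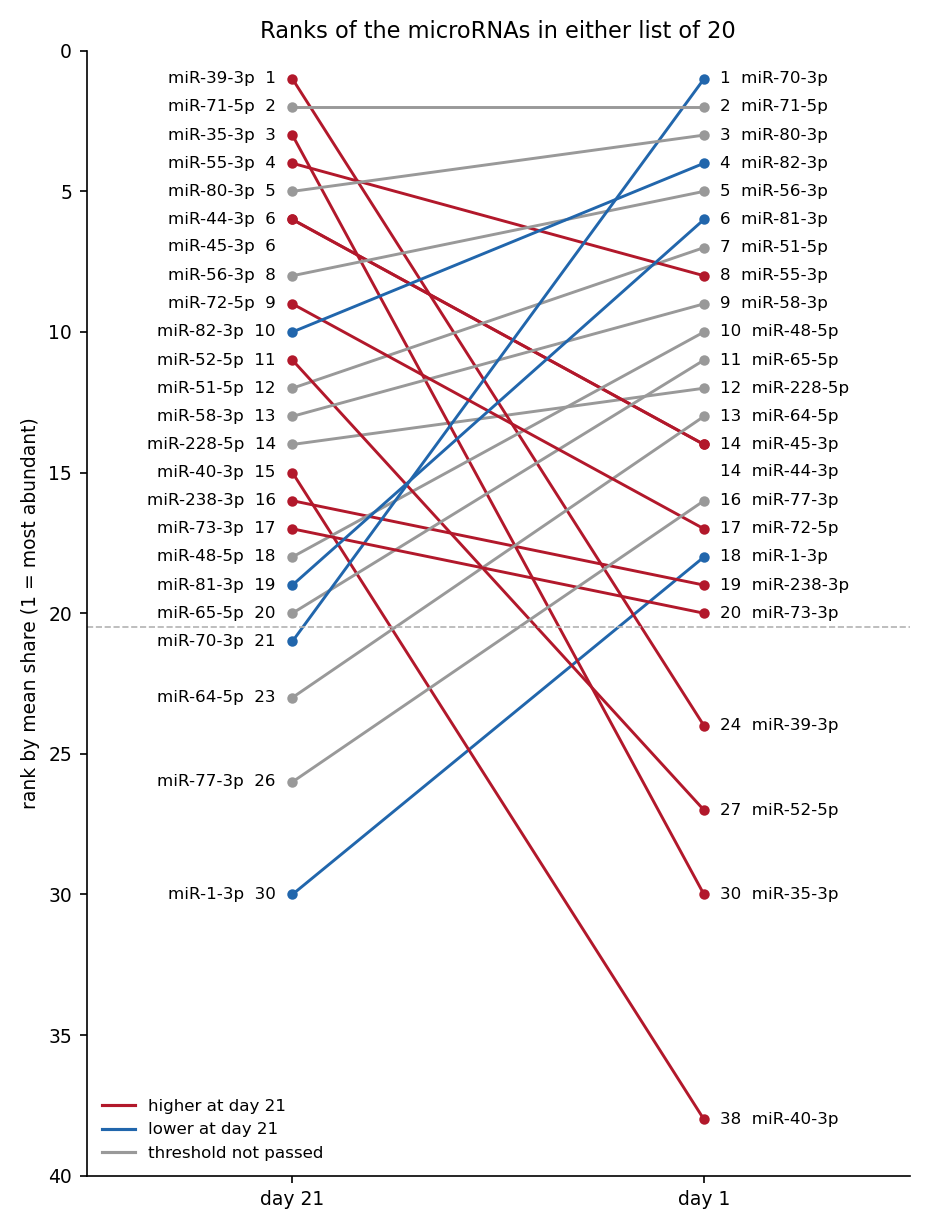
Ranks by mean share of the 24 microRNAs that were among the 20 most abundant at day 21 (left) or day 1 (right), where 1 is the most abundant and the dashed line marks the limit of the list. Red lines passed the edgeR threshold as higher at day 21, blue lines as lower and grey lines did not pass. miR-44-3p and miR-45-3p lie on 1 line. The steepest red lines belong to miR-35 family members and miR-52-5p, and miR-70-3p drops out of the list.

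How far ranks agreed was described by Spearman's rho between pairs of libraries over the 57 abundant microRNAs, which share libraries and are not independent. It was 0.966 to 0.974 within day 21, 0.958 to 0.997 within day 1 and 0.644 to 0.765 between the ages. Pairs of libraries shared 18 of their 20 leading names within day 21, 16 to 19 within day 1 and 13 to 16 between the ages. Between the mean profiles rho was 0.72 over the 57. By mean share 29 of the 57 moved by at least 10 ranks, 14 of them up at day 21 and 15 down.

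miR-39-3p, a member of the miR-35 family, led the old pool. Its share was 7.61, 10.3 and 8.44% in the 3 day 21 libraries, against 0.946, 0.961 and 0.891% at day 1. It ranked first or second in each old library and between 21 and 27 in the young ones, with a log2 fold change of 3.39 (SE 0.30, edgeR adjusted p = 2.61e-07). miR-35-3p followed the same pattern with 6.06, 5.22 and 5.59% at day 21, against 0.705, 0.493 and 0.7496% at day 1 (log2 fold change 3.30, SE 0.21). miR-40-3p had 2.47, 2.77 and 2.72% at day 21, against 0.369, 0.224 and 0.383% at day 1. In these guides the old libraries lay far above all young ones.

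Among the less abundant guides of the family, miR-42-3p, miR-38-3p and miR-37-3p had larger fold changes than these and miR-36-3p a smaller one. miR-42-3p averaged 0.498% ± 0.0537 at day 21 and 0.0117% ± 0.00238 at day 1, and its log2 fold change of 5.58 (SE 0.24) was the largest rise among the abundant microRNAs. miR-38-3p rose by 5.35 on the log2 scale and miR-37-3p by 3.96, while miR-36-3p rose by 2.62, with edgeR adjusted p-values from 3.91e-10 to 3.40e-08. All 8 of the 3p arms, the guides of this family, were higher at day 21. Of the 7 tested 5p arms, which are the passenger strands, only miR-42-5p was higher, those of miR-36, miR-40 and miR-41 were lower, and 3 did not pass. miR-40-5p, for example, had a log2 fold change of -1.97 and miR-41-5p of -2.42, while the guides of their hairpins rose.

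Within the family the order of the leading members did not move with its total. miR-39-3p made up 41.9% ± 4.55 of the family's counts at day 21 and 40.5% ± 6.93 at day 1, and miR-35-3p 27.1% ± 3.28 and 27.6% ± 2.60 (SD, n = 3 each). The minor members moved both ways within it. miR-38-3p held 3.92% of the family at day 21 and 0.974% at day 1, and miR-42-3p 2.40% and 0.499%, while miR-36-3p held 5.55% of it at day 21 and 9.06% at day 1, with no overlap of the ages in any of them.

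The genes mir-35 to mir-41 lie together on chromosome II from base 11537608 to 11538404 of the plus strand (WBcel235). The hairpins of mir-35 to mir-40 lie in intron sequence of the protein-coding gene Y62F5A.9 on the other strand, and mir-41 was not looked up. The cluster as a whole held 20.4% ± 1.00 of the pool at day 21 and 2.32% ± 0.303 at day 1. mir-42 is in another cluster on the same chromosome, with mir-43 and mir-44, which held 5.56% ± 0.785 at day 21 and 2.06% ± 0.304 at day 1. Most of this was miR-44-3p, at 5.04% and 2.04%. Its counts equal those of miR-45-3p, whose gene lies outside the cluster, so they cannot be assigned to it. Counts from chromosome II, which also carries mir-45, mir-72 and mir-77, made up 38.9% ± 2.40 of the pool at day 21 and 12.5% ± 1.02 at day 1. That total adds miR-44-3p and miR-45-3p, so it may hold the same reads more than once. Chromosome V, the site of mir-70, stood opposite with 4.15% ± 1.23 and 15.7% ± 1.83. Chromosomes III and IV overlapped between the ages.

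miR-70-3p lost more points of share than any other microRNA. Its share was 2.62, 0.880 and 0.799% at day 21, against 10.8, 14.2 and 9.27% at day 1. It led day 1 replicate 2 and came second to miR-80-3p in the other young libraries, whereas its ranks in the old ones were 13, 28 and 30. The log2 fold change was -2.91 (SE 0.49, edgeR adjusted p = 1.03e-04). With day 21 replicate 1 left out, the old library in which its share was highest, it was -3.71. Its mean share was 9.75% at day 7 and 1.98% at day 14. mir-70 lies on chromosome V from 6665536 to 6665635 on the minus strand, within an intron of pmp-5 on the same strand.

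miR-71-5p, whose gene promotes long life in worms, was second by mean share at both ages. Its share was 8.32, 6.76 and 3.71% at day 21, against 8.36, 11.3 and 8.92% at day 1. Shares did not overlap, by a narrow margin, but the log2 fold change of -0.48 (SE 0.32) did not pass the edgeR test (adjusted p = 0.19). It did pass as lower when day 21 replicate 1 or day 1 replicate 1 was left out (adjusted p = 0.0292 and 0.0358), and was -0.30 without day 1 replicate 2 (0.321). In the old libraries it ranked 1, 2 and 12. Its passenger arm miR-71-3p fell by 1.601 on the log2 scale (SE 0.22), to 0.0214% ± 0.00407 at day 21, against 0.0735% ± 0.0193 at day 1.

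**Figure D4:**
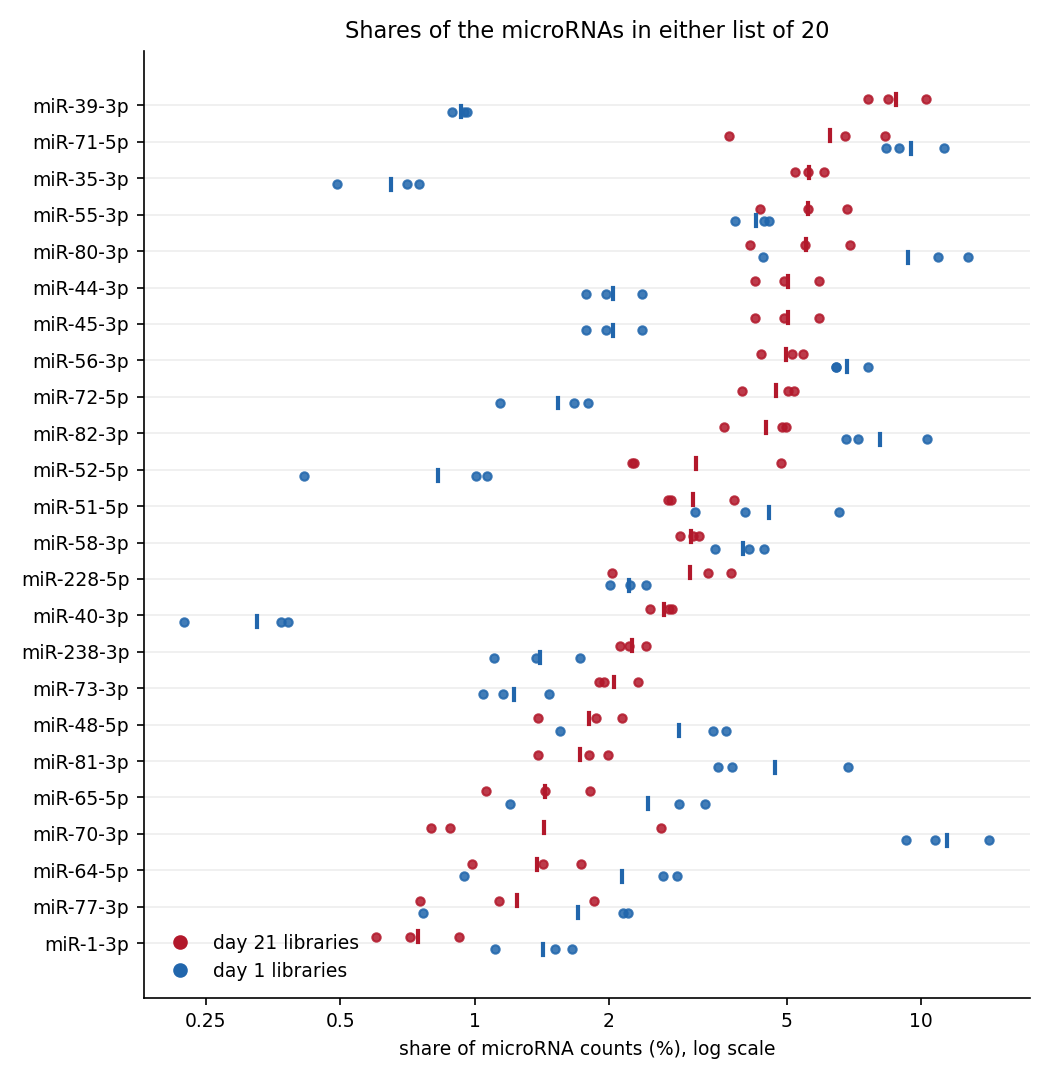
Share of microRNA counts (x axis, percent, log scale) of the 24 microRNAs among the 20 most abundant at either age, with a point per library and a bar at the mean, day 21 in red above day 1 in blue. Day 21 points lie to the right for miR-39-3p, miR-35-3p, miR-40-3p, miR-52-5p and miR-72-5p and to the left for miR-70-3p and miR-81-3p, and the ages overlap for members such as miR-51-5p and miR-80-3p.

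Counts were also summed over gene families named by their genes, both arms of each hairpin included, and tested in the same way. Of 116 families and single genes tested, 75% passed, 42.2% as higher and 32.8% as lower. Of the 16 that held at least 1% of the pool at either age, 9 passed, 4 as higher and 5 as lower, a share below that background whose difference was not tested. The miR-35 family ranked first at day 21 and ninth at day 1 (log2 fold change 3.34, SE 0.22, edgeR adjusted p = 8.57e-09). Its net gain was 18.5 points of the pool.

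The miR-58 family, the worm relatives of the fly growth regulator bantam, had led the young pool. It held 16.8, 14.3 and 13.4% at day 21, against 25.8, 26.3 and 27.0% at day 1. The log2 fold change of the family was -0.68 (SE 0.20, edgeR adjusted p = 0.00632), smaller than the loss of share. Its members did not move alike. miR-81-3p fell by 1.36 on the log2 scale (SE 0.36), with 1.80, 1.99 and 1.38% at day 21, against 3.77, 6.87 and 3.51% at day 1. Its day 1 share was highest in replicate 2. Over the alternative fits its log2 fold change ran from -1.71 to -0.90, and it passed in each. miR-82-3p had 4.88, 4.97 and 3.62% at day 21, against 6.79, 10.3 and 7.22% at day 1, and its log2 fold change of -0.74 (SE 0.30) passed with an edgeR adjusted p of 0.0364, but not with the day 21 and day 1 libraries alone (0.0759). Its day 1 share too was highest in replicate 2, and its log2 fold change ran from -1.07 to -0.47 over the alternative fits.

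The leading member of that family was the least steady between replicates. miR-80-3p, whose gene is tied to dietary restriction in worms, had 6.94, 4.13 and 5.50% at day 21, against 10.9, 4.43 and 12.7% at day 1. The low value of day 1 replicate 2 lies within the old range, and the log2 fold change of -0.55 did not pass (edgeR adjusted p = 0.0692), but did without that library (-0.94, adjusted p = 0.00173) and without day 21 replicate 1 (-0.82, 0.0280). miR-58-3p averaged 3.05% ± 0.157 at day 21 and 4.004% ± 0.502 at day 1, with a log2 fold change of -0.25 that did not pass. mir-81 and mir-82 both lie within gid-2 on chromosome X, mir-82 in an intron on its strand and mir-81 in one on the other.

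The miR-51 family as a whole did not pass the test, while some of its members did. It summed to 14.2, 16.3 and 21.7% at day 21, against 16.4, 18.6 and 15.4% at day 1, with a log2 fold change of 0.18 (SE 0.23, edgeR adjusted p = 0.503). miR-52-5p rose by 2.13 on the log2 scale (SE 0.33, adjusted p = 5.32e-05), with 2.28, 2.26 and 4.85% at day 21, against 1.07, 0.415 and 1.01% at day 1. Its day 1 share was lowest in replicate 2. Over the alternative fits its log2 fold change ran from 1.56 to 2.24, and it passed in each. The less abundant miR-53-5p and miR-54-3p rose by 2.46 and 1.26. At day 1 their parts of the family's counts were lowest in replicate 2, at 0.0781% and 0.697%. The sizes of these 2 rises lean on that library and are not given here without it. miR-51-5p, at 3.09% ± 0.620 against 4.57% ± 1.78, and miR-56-3p, at 4.99% ± 0.557 against 6.84% ± 0.680, did not pass with all libraries. The log2 fold change of miR-51-5p was -0.49, but -0.02 without day 1 replicate 2, where its share was highest (edgeR adjusted p = 0.942), and -0.78 without day 1 replicate 3 (0.0487). That of miR-56-3p was -0.32, but -0.19 without day 1 replicate 2 (0.304) and -0.58 without day 1 replicate 1 (0.0300).

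As a part of its family, miR-52-5p stood at 17.4% ± 4.41 at day 21 and 5.09% ± 2.48 at day 1, and miR-56-3p at 29.1% ± 3.51 and 40.7% ± 1.45, without overlap in either (exact permutation p = 0.1 with 3 libraries each, the smallest possible). At day 21 miR-55-3p led the family with 32.1% ± 2.02 of its counts. Its own rise of 0.55 was small and passed narrowly (SE 0.22, edgeR adjusted p = 0.0370). With replicate numbers as a block it did not pass (0.0546), and among the fits with a library left out it passed only in the one without day 21 replicate 1. mir-54, mir-55 and mir-56 are neighbours on chromosome X, within 404 bases, and their cluster held 11.1% ± 1.89 of the pool at day 21 and 11.4% ± 0.212 at day 1.

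The miR-44 and miR-72 families gained. The miR-44 family held 10.4, 12.7 and 8.90% at day 21, against 4.30, 5.87 and 4.68% at day 1 (log2 fold change 1.24, SE 0.28, edgeR adjusted p = 0.00121). miR-44-3p and miR-45-3p, its leading guides, had identical counts in 11 of the 12 libraries, all 6 compared here among them, and differed by 1 count in the other. Their counts therefore cannot be told apart, and the gene of origin is uncertain. The family total adds both, so it may hold the same reads more than once. Each had 4.94, 5.92 and 4.25% at day 21, against 1.77, 2.37 and 1.97% at day 1, and they shared rank 6 at day 21 and rank 14 at day 1. Counted once, miR-44-3p kept both ranks, with 5.31% ± 0.933 at day 21 and 2.08% ± 0.319 at day 1. Another member, miR-61-3p, held 5.25% ± 1.08 of the family at day 21 and 16.7% ± 1.76 at day 1, and its own log2 fold change of -0.40 did not pass.

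miR-72-5p accounted for most of the gain of the miR-72 family. It had 3.98, 5.19 and 5.03% at day 21, against 1.67, 1.14 and 1.80% at day 1 (log2 fold change 1.82, SE 0.27, edgeR adjusted p = 3.75e-05). miR-73-3p of the same family had 1.90, 2.32 and 1.95% at day 21, against 1.05, 1.47 and 1.16% at day 1, a smaller rise of 0.87 (SE 0.28) that did not pass without day 1 replicate 1 (edgeR adjusted p = 0.0718). The family was at 6.83% ± 0.833 at day 21 and 2.78% ± 0.181 at day 1. miR-238-3p, whose gene affects lifespan, rose by 0.86 (SE 0.19) with 2.22, 2.12 and 2.42% at day 21, against 1.37, 1.11 and 1.72% at day 1. Its gene lies in a cluster of 8815 bases on chromosome III with mir-80 and mir-90, of which miR-80-3p and miR-90-3p did not pass.

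The let-7 family fell as a whole by 0.60 on the log2 scale (SE 0.18, edgeR adjusted p = 0.00746), to 2.65% ± 0.458 at day 21, against 4.59% ± 1.37 at day 1. Its members went in opposite directions. let-7-5p, the switch to adult fates, had 0.0753, 0.0309 and 0.0400% at day 21, against 1.00, 0.779 and 0.989% at day 1, a log2 fold change of -4.10 (SE 0.32). miR-241-5p fell by 3.65, and miR-48-5p, the most abundant member, had a log2 fold change of -0.46 that did not pass (edgeR adjusted p = 0.0721), but did without day 1 replicate 2 (-0.80, 0.00313). miR-84-5p rose by 1.18 (SE 0.26) with 0.628, 0.634 and 0.909% at day 21, against 0.483, 0.185 and 0.455% at day 1. Its day 1 share was lowest in replicate 2, so the size of this rise leans on that library, and it is not given here without it. In the family's counts let-7-5p took 1.80% ± 0.659 at day 21 and 20.9% ± 4.19 at day 1, and miR-84-5p 27.6% ± 5.43 and 7.85% ± 1.496.

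Some changes of single genes outside these families were as large but moved less of the pool. miR-237-5p, the sister of lin-4, fell by 4.73 on the log2 scale (SE 0.34), to 0.0140% ± 0.00522 at day 21, against 0.402% ± 0.0568 at day 1, the largest fall among the abundant microRNAs. miR-34-5p, a conserved microRNA of the DNA damage response, rose by 4.21 (SE 0.31), with 0.344, 0.409 and 0.428% at day 21, against 0.0301, 0.0143 and 0.0301% at day 1. miR-240-5p, the less abundant arm of its hairpin by mean share, rose by 3.72 (SE 0.41), while both arms of mir-240 together rose by 1.80 (SE 0.24). The other arm made up 87.6% of the gene's mean share at day 1 but 52.6% at day 21. miR-1-3p of muscle fell by 0.75 (SE 0.22), to 0.747% ± 0.161 at day 21, against 1.43% ± 0.282 at day 1. These 4 microRNAs passed with edgeR adjusted p-values from 3.40e-08 to 0.00678. miR-83-3p, at 0.0249% ± 0.00861 and rank 70 at day 21, against 0.00625% ± 0.00361 and rank 108 at day 1, stayed outside the abundant microRNAs.

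**Figure D5:**
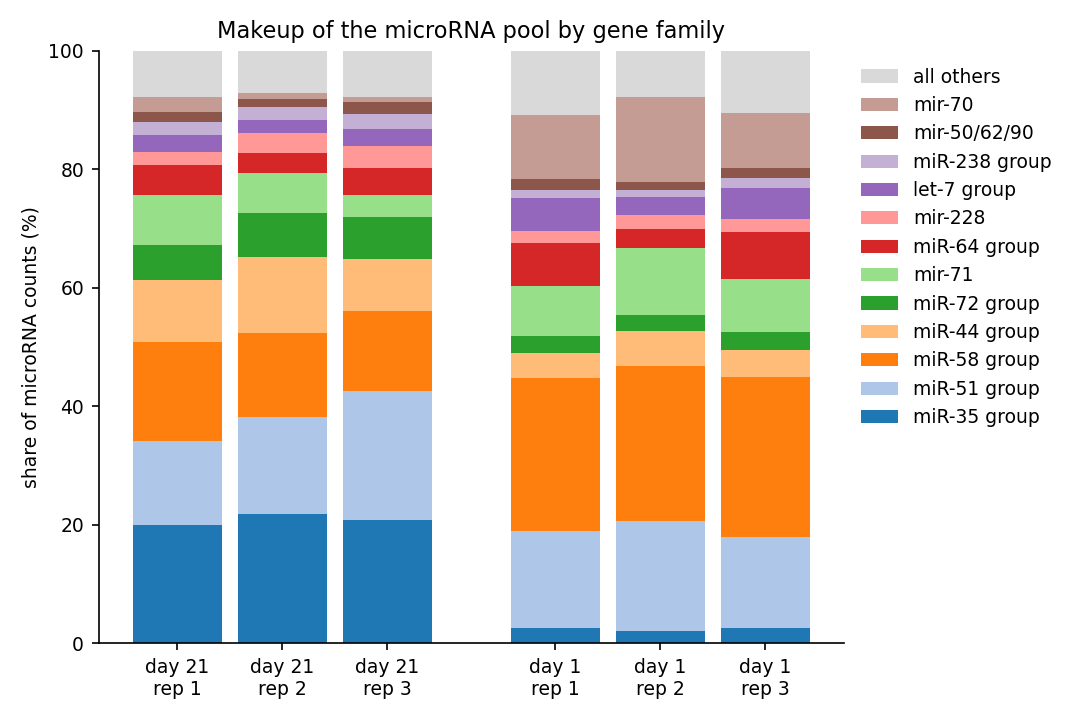
Share of microRNA counts (y axis, percent) of the 12 largest gene families and single genes at day 21, stacked for each day 21 library (left) and each day 1 library (right), with all others in grey. The miR-35 family, at the foot of the bars, fills 19.9% to 21.8% of the old libraries and 1.98% to 2.53% of the young ones, and mir-70, under the grey part, is wide in the young libraries.

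A small number of microRNAs moved most of the pool. The 10 that gained most took 30.1 points, which is 81.9% of all points gained, and the 10 that lost most gave up the same amount, 81.8% of all points lost. Those that gained include both miR-44-3p and miR-45-3p, whose equal counts may come from the same reads. miR-39-3p gained 7.84 points and miR-35-3p 4.98, while the largest losses were -9.99 points for miR-70-3p, -3.84 for miR-80-3p, -3.62 for miR-82-3p and -3.25 for miR-71-5p. The miR-35 family did not carry the whole difference. With its counts taken out and shares recomputed, the gap in dissimilarity was 15.6 points, the effective number was 28.2 at day 21 and 25.3 at day 1, and miR-70-3p had 1.80% ± 1.27 at day 21 and 11.7% ± 2.58 at day 1. In that reduced pool miR-71-5p ranked first at day 21, at 7.91% ± 2.92, and second at day 1, at 9.74% ± 1.5499.

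Features of the molecules shifted with these members. The share of counts on 3p arms was 70.1, 71.3 and 68.5% at day 21, against 66.7, 68.4 and 66.8% at day 1. The direction turned without the miR-35 family, whose guides are 3p arms, to 62.1% at day 21 and 66.6% at day 1. Less abundant arms of hairpins held 0.391% ± 0.0315 of all counts at day 21 and 0.759% ± 0.151 at day 1. By the annotated length of the mature microRNA, not of the reads, those of 23 bases held 42.2% ± 2.36 at day 21 and 56.8% ± 3.12 at day 1, and those of 22 bases 38.7% ± 1.07 and 31.4% ± 3.30. The 22-base share rose by 7.27 points, while the miR-35 family, whose leading guides miR-39-3p and miR-35-3p have 22 bases, gained 18.5 points. Shares by length are not given here without that family. The ages did not overlap in any of these measures (exact permutation p = 0.1 with 3 libraries each, the smallest possible).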

How the data were processed

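Small RNA libraries of total RNA from whole worms were compared. The authors aligned reads to WBcel215 with TopHat, mapped them to known microRNAs with miRDeep and compared ages with DESeq; tool versions are not given in the sources used here. The deposited table holds whole counts per microRNA and library as the authors made them. Its 12 normalized columns, and the deposited comparisons, which hold the authors' fold changes and p-values, were not used. Of its lines, 375 carry a microRNA name and 1, without counts, carries none. Among 368 mature names, 7 recur on other lines, and the line with the largest total was kept.

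edgeR 4.0.16 (R 4.3.3) kept 245 microRNAs by filterByExpr (minimum count 10, at least 99.997% of each library's counts), scaled them by TMM and fitted all 12 libraries with age as the only term (8 residual degrees of freedom). Families were scaled with the same factors. Measures of the pool were tested by exact permutation over libraries. The fit was also run on simulated data with rises and falls in about equal number. That run does not test the scaling in this pool, and no result above rests on it. Gene positions came from Ensembl's WBcel235 annotation, matched by name (362 of 368 names). Seed groups could not be formed without mature sequences, and families by gene name took their place.

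No replicate pair of these ages was equal within sampling noise (lowest chi-square 387 per degree of freedom), and the study calls them biological. Same-numbered libraries of the ages deviated together (r = 0.217, 0.415 and 0.413), and the study describes every replicate as sampled at each age, so numbers were taken to pair them. The main fit and the permutation tests left this pairing out, and only the replicate block used it. The smallest permutation p of 0.1 holds for libraries exchanged freely, and exchange within pairs alone could not reach it. Intervals of counting cover counting error only, since reads had no molecular identifiers. Related members that differ by few bases may share reads. Named microRNAs were the 20 most abundant at either age, the 10 that gained and lost most points, the 5 largest rank moves each way in the first 50 and the 5 largest fold changes each way among abundant ones, and the families with at least 1%. Others were named after their values were seen: the remaining arms of those families, miR-83-3p and marker microRNAs. The comparison, members and lists were chosen with earlier results of these data known. Alternatives were other scalings, filters, DESeq2 1.42.0, the 2 ages alone, a replicate block, summed lines and each library left out.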

Additional observations from a re-analysis of the deposited data

How the results depend on the processing

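Of the 174 microRNAs past the threshold, 86 were higher and 88 lower at day 21. The count was 171 with the replicate number as a block, 179 with DESeq2, 192 without a filter, 123 where every library had to reach 10 counts, and leaving out a library gave 157 to 185. Among the abundant microRNAs it was 40 with the block and 39 to 46 with a library left out. Of the 36 named microRNAs 26 passed, 23 of them under every one of 15 settings, and all 9 named families that passed did so throughout. The exceptions were miR-55-3p, which the replicate block (adjusted p = 0.0546) and scaling by total counts (0.0791) among others took over the threshold, miR-73-3p without day 1 replicate 1 (0.0718) or with the 2 ages alone (0.0861), and miR-82-3p. The block changed no other call among them. miR-71-5p (adjusted p = 0.0449), miR-80-3p (0.0460), miR-56-3p (0.0208), miR-65-5p (0.0458) and miR-48-5p (0.0497) passed as lower with scaling by total counts. Without day 1 replicate 2, miR-64-5p (0.00736) and miR-65-5p (0.00271) also passed as lower and miR-228-5p (0.0446) as higher, and without day 21 replicate 1, miR-65-5p (0.0253) and miR-228-5p (0.0163).

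The difference in the share of the leading microRNAs was -9.53 points for 10 of them, -3.63 points for the first alone and -3.52 points for 20. The number that makes up 90% of the pool differed by 1.33, against 2.33 for 50%. The gap in dissimilarity was 15.6 without the miR-35 family and 25.4, in other units, as Euclidean distance of log2 CPM. The share on 3p arms turned to a difference of -4.50 points without the miR-35 family. Counting miR-44-3p and miR-45-3p once, and families by name in place of seed groups, were chosen after seeing the data. Seed groups, the first base and GC content were not run. With 3 libraries an age, no permutation p could pass 0.05.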
